A study of Sus scrofa with 18 samples.

Results

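The smooth muscle genes were followed through tumours and normal tissue of pigs, 10 genes in all: MYOCD, which encodes myocardin, and MYH11, ACTA2, CNN1, TAGLN, LMOD1, SMTN, DES, SYNM and PCP4. They were chosen by symbol as 10 of the 27339 genes in the deposited table of read counts, with earlier results of these data known. The counts of genes called below are therefore not those of a blind choice. All 10 were present and all 10 had enough counts to be tested among 12895 tested genes.

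Messenger RNA was measured in 18 libraries, 3 in each of 6 groups. The 9 DIK libraries came from fresh tumours labelled nose, mouth and scrotum, and the 9 WT libraries from fresh normal tissue of wild-type pig under the same labels. DIK pigs are double knock-in animals that carry elements of the doxycycline-controlled Tet-on system and of the phiC31 integrase system for switching genes on. Of 3 DIK founders given doxycycline (Dox) from 7 months of age together with age-matched WT, 1 founder formed the tumours, and tissue was taken 8 months after induction. Dox was therefore common to both genotypes. The sources used here do not give the strain, the promoter that drives the transgenes, the gene they switch on or how many WT animals there were. All DIK libraries share 1 animal, so genotype, tumour and that animal cannot be told apart, and every p-value below reflects the scatter among these libraries, part of which may be technical.

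Smooth muscle cells wall vessels, airways, gut and other hollow organs and contract by sliding smooth muscle myosin along actin. Myocardin is a coactivator that binds serum response factor at CArG boxes in the promoters of contractile genes, and it is expressed in smooth and cardiac muscle. The related factors MRTFA and MRTFB work through the same partner in many cell types. Desmin and synemin filaments are shared with skeletal muscle, whereas smooth muscle myosin marks the smooth muscle lineage.

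Total counts per library ran from 418665 in WT nose replicate 1 to 5041470 in WT nose replicate 3, and from 2024959 to 4146150 in the DIK libraries. The floor used here, 3 counts, was worth 0.483 to 5.76 CPM (counts divided by library totals that TMM factors had adjusted), so zeros in WT nose replicate 1 carry less weight than elsewhere. The labels mouth and scrotum went against the posterior HOX genes, which mark the trunk and hind body. Their summed level was 11.7 to 20.4 CPM in DIK mouth and 42.2 to 70.8 CPM in WT mouth, against 0.625 to 4.19 CPM in DIK scrotum and 3.36 to 6.52 CPM in WT scrotum. Groups are kept here as labelled, and a direction between labels rests on those labels. WT scrotum replicate 2 stood apart in the genes listed for basal and myoepithelial cells (KRT5, TP63 and OXTR). Their summed level was 12085 CPM there, against 973 and 46.6 CPM in the other WT scrotum libraries. OXTR had 7 counts or fewer in each group.

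The first question was how tumour differed from normal tissue in the smooth muscle genes at each label. In edgeR's quasi-likelihood test, with p-values adjusted over all tested genes and a call at adjusted p under 0.05, DIK tumours were lower for 8 of the 10 genes at the nose label, for all 10 at the mouth label and for 8 at the scrotum label, and higher for 0 at each. Of all tested genes, 20.1% were called lower and 21.9% higher at the nose label, 24.3% lower and 22.7% higher at the mouth label, and 24% lower and 19.4% higher at the scrotum label. MYOCD and SMTN were the genes not called at the nose and scrotum labels. The median log2 difference, DIK minus WT, over the 10 genes was -3.58 at the nose label, -8.38 at the mouth label and -3.95 at the scrotum label, beside 0.03, -0.04 and -0.09 over all tested genes. With genes at 0 counts set to the bound that 3 counts allow, it was -7.53 at the mouth label and -2.10 at the scrotum label.

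All 3 DIK libraries lay below all 3 WT libraries for 8 of the 10 genes at the nose label, 10 at the mouth label and 6 at the scrotum label, beside 25.1%, 29.7% and 27.2% of all tested genes. At the scrotum label ACTA2 and TAGLN overlapped although they were called, with WT scrotum replicate 2 inside the DIK range for both. Together the 10 genes took 0.105% to 0.451% of the counts in the DIK libraries. In WT they took 2.69% to 3.11% at the nose label, 8.71% to 14.3% at the mouth label and 0.701% to 3.82% at the scrotum label. In bulk tissue, fewer cells of a type and less RNA per cell cannot be told apart.

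**Figure D1:**
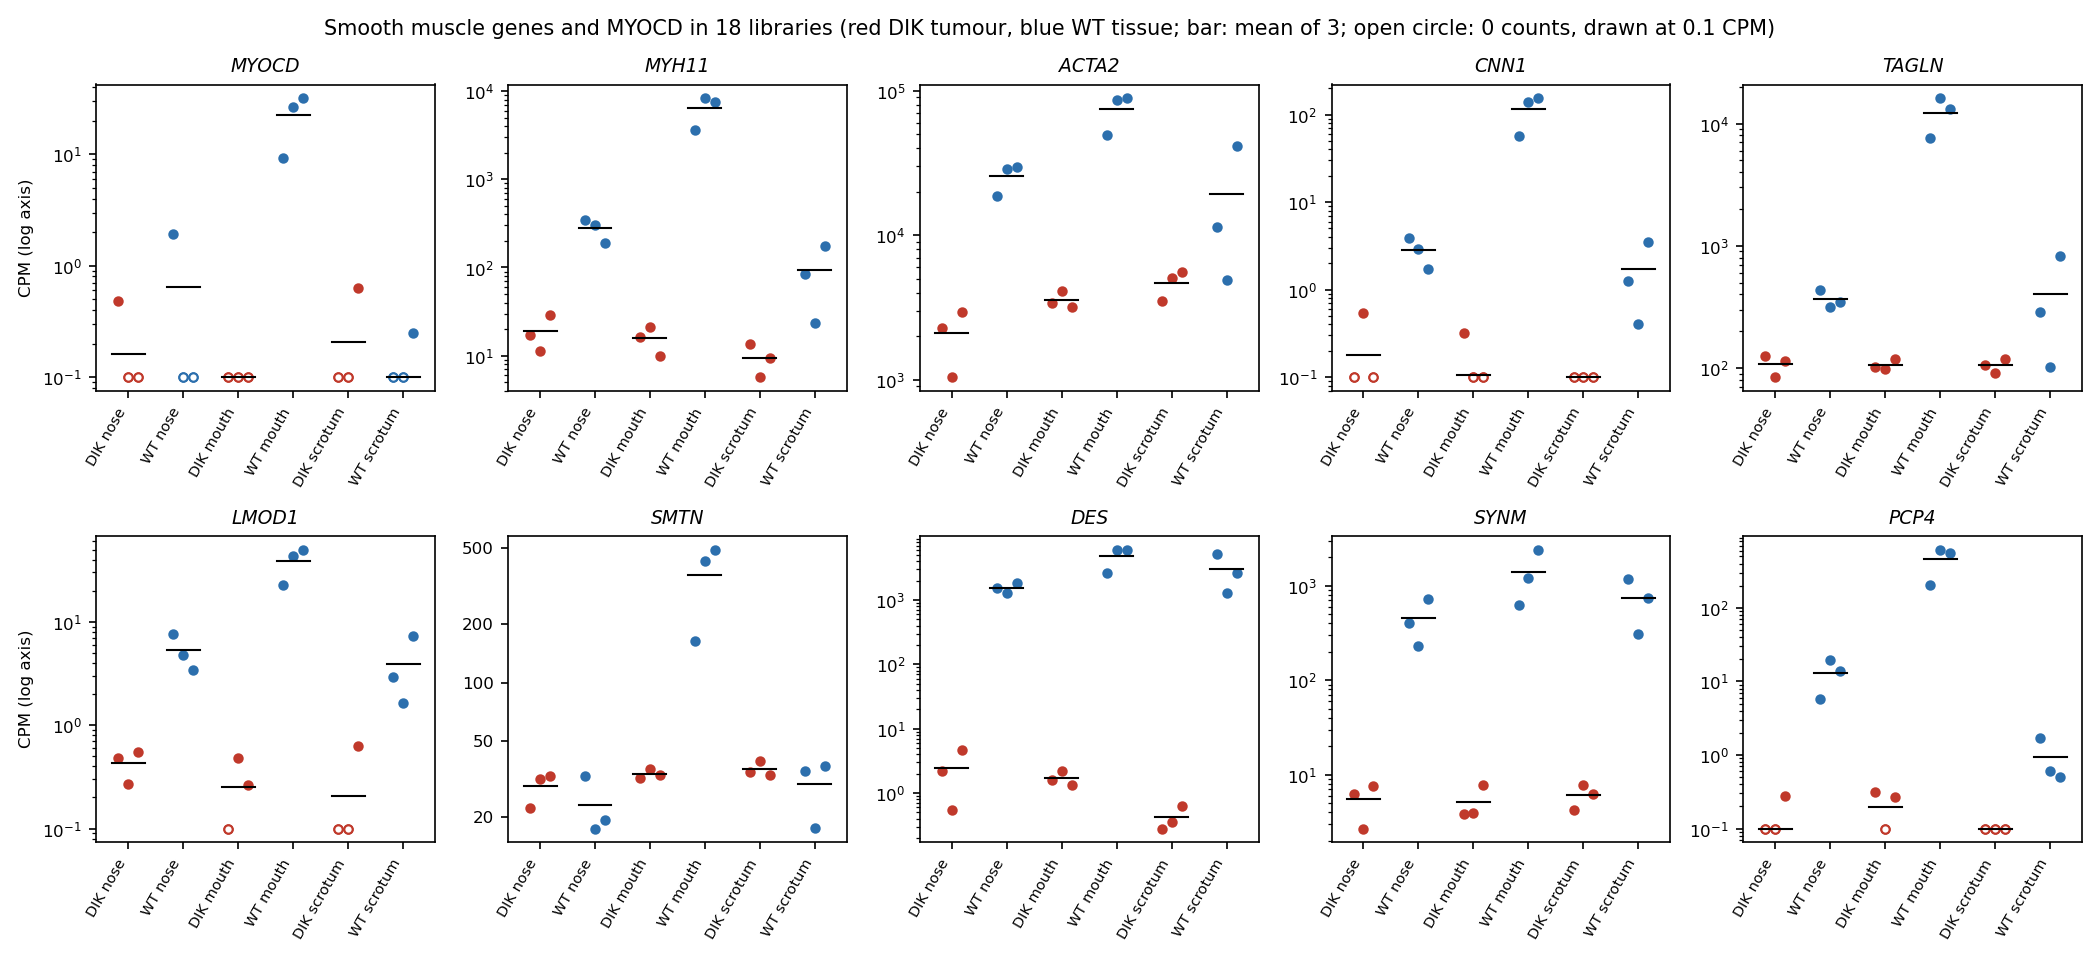
CPM on a log axis (y) of the 10 genes in the 6 groups (x), 1 point per library, red for DIK tumour and blue for WT tissue, with the mean of 3 libraries as a bar; open circles mark 0 counts and, like bars for means under 0.1 CPM, are drawn at 0.1 CPM. The WT mouth libraries are the highest for MYOCD, MYH11, ACTA2, TAGLN, CNN1, LMOD1, SMTN and PCP4, whereas DES and SYNM are also high in WT nose and WT scrotum, and TAGLN in the 9 DIK libraries lies between 84.3 and 124 CPM.

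MYOCD, the regulator, was measurable in a single group. It had 0 counts in all 3 DIK mouth libraries, against 58, 152 and 121 counts in the WT mouth libraries. These WT counts corresponded to 9.33, 26.5 and 31.7 CPM, so DIK mouth was at least 77.2-fold lower (edgeR adjusted p = 9.70e-06), with the floor of 3 counts taken over the group. At the nose label it had 2 counts in DIK and 1 in WT, and at the scrotum label 1 count in DIK and 1 in WT. Both groups were under the floor at these labels, so no fold is given and a difference was not detectable at this depth. WT nose and WT scrotum libraries carried MYH11, ACTA2 and TAGLN reads, described next, with MYOCD at or under the floor.

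MYH11 encodes the smooth muscle myosin heavy chain, the motor of the contractile filament. At the nose label its level was 17.2, 11.3 and 28.7 CPM in DIK, against 349, 305 and 192 CPM in WT, which is -3.88 on the log2 scale (SE 0.63; edgeR adjusted p = 0.000102). At the mouth label it was 16.5, 20.9 and 9.86 CPM in DIK, against 3610, 8270 and 7506 CPM in WT, a difference of -8.68. At the scrotum label it was 13.4, 5.72 and 9.38 CPM in DIK, against 83.5, 23.4 and 174 CPM in WT, a difference of -3.29 ± 0.62 (edgeR adjusted p = 0.000358). DIK and WT libraries did not overlap at any label. The WT groups spread far more than the DIK groups: over 9 libraries MYH11 ran from 5.72 to 28.7 CPM in DIK and from 23.4 to 8270 CPM in WT.

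ACTA2 encodes smooth muscle alpha-actin, the partner of that myosin, which myofibroblasts also make. Alone it took 6.70% to 10.4% of the counts in the WT mouth libraries. Its level was 2296, 1045 and 2964 CPM in DIK nose, against 18822, 28863 and 29533 CPM in WT nose. It was 3426, 4111 and 3203 CPM in DIK mouth, against 49244, 86507 and 88647 CPM in WT mouth. It was 3507, 5073 and 5543 CPM in DIK scrotum, against 11351, 4886 and 41482 CPM in WT scrotum. The groups were separate at the nose and mouth labels and overlapped at the scrotum label, through WT scrotum replicate 2.

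The log2 differences of ACTA2 were -3.61 ± 0.66 at the nose label (edgeR adjusted p = 0.000311), -4.38 ± 0.68 at the mouth label (edgeR adjusted p = 5.72e-05) and -2.03 ± 0.62 at the scrotum label (edgeR adjusted p = 0.0127). The scrotum call rested on WT scrotum replicate 3. Without that library the difference was -0.79 and the edgeR adjusted p 0.256. It was also lost without DIK scrotum replicate 1 (edgeR adjusted p = 0.0589) and when only the 6 scrotum libraries were fitted (0.0859).

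Actin genes are near-identical in sequence, and the sources used here do not say how reads that map to several places were counted, so ACTA2 values are uncertain where another muscle actin is abundant. For each count of ACTA1, the skeletal muscle actin, there were 3.34 to 3385 counts of ACTA2 over the DIK libraries, and 0.363 to 0.425 in WT nose, 344 to 367 in WT mouth and 0.0824 to 0.356 in WT scrotum. ACTC1, the cardiac actin, was high in the WT mouth libraries too, at 8131 to 30743 CPM, against 2.9 to 4.0 CPM in DIK mouth. ACTG2, the enteric smooth muscle actin, averaged 173 ± 129 CPM in DIK nose and 3274 ± 834 CPM in WT nose, 213 ± 89.4 CPM in DIK mouth and 49888 ± 12895 CPM in WT mouth, and 185 ± 126 CPM in DIK scrotum and 3323 ± 3749 CPM in WT scrotum (SD, n = 3 each). Its log2 differences were -4.24 ± 0.89, -7.87 ± 1.06 and -4.17 ± 0.89 at the nose, mouth and scrotum labels, each called lower in edgeR. The part that reads shared between actin genes had in the ACTA2 values was not tested.

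**Figure D2:**
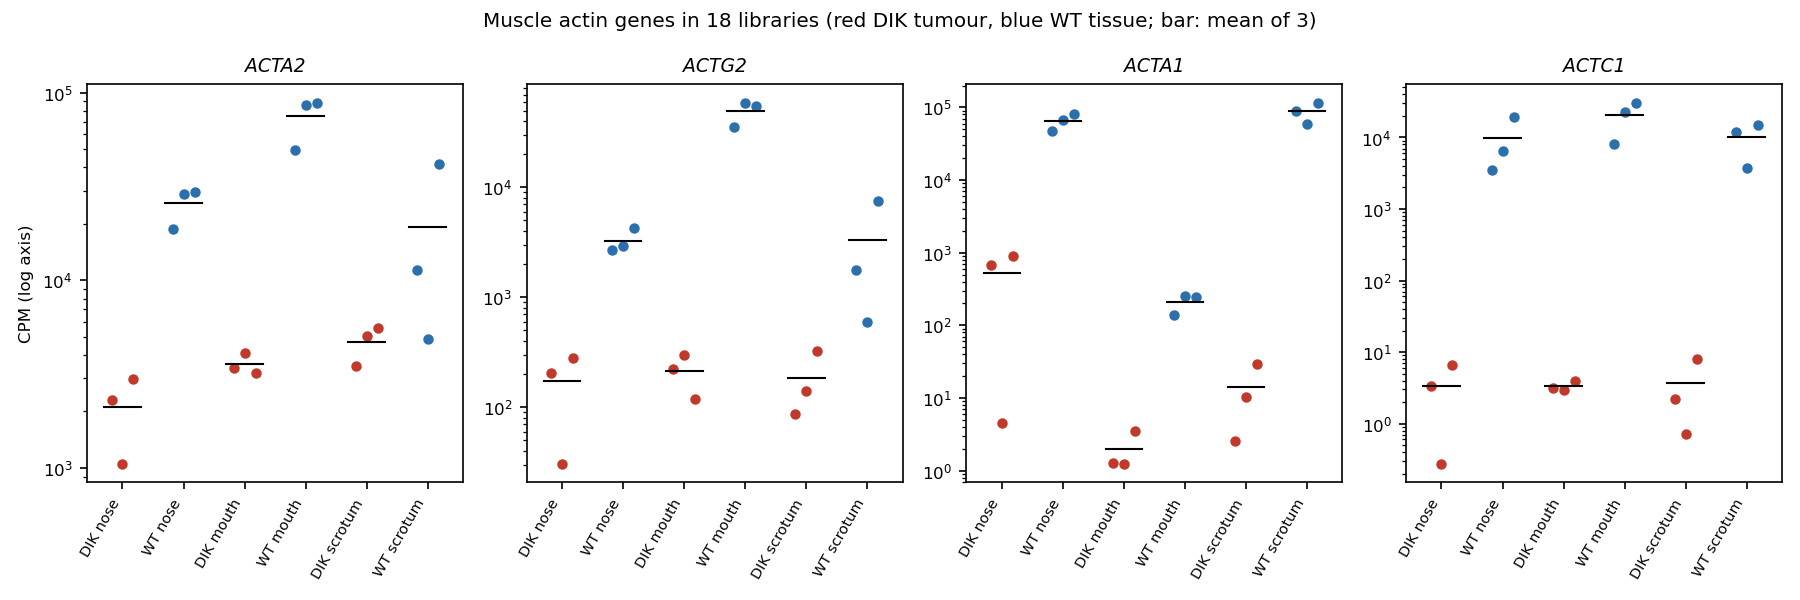
CPM on a log axis (y) of the smooth muscle actins ACTA2 and ACTG2, the skeletal muscle actin ACTA1 and the cardiac actin ACTC1 in the 6 groups (x), 1 point per library, red for DIK and blue for WT, with the mean of 3 libraries as a bar. ACTA1 averaged 65295 CPM in WT nose and 210 CPM in WT mouth, while ACTA2 and ACTG2 are highest in WT mouth.

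TAGLN encodes transgelin (SM22-alpha), an actin-binding protein and a classical target of myocardin. Its level in tumours was 124, 84.3 and 114 CPM in DIK nose, 102, 98.9 and 119 CPM in DIK mouth, and 106, 91.5 and 118 CPM in DIK scrotum. The WT libraries had 438, 314 and 345 CPM at the nose label, 7544, 16042 and 13169 CPM at the mouth label, and 288, 101 and 820 CPM at the scrotum label. The highest of the 9 DIK libraries was 1.47 times the lowest, the narrowest spread among the genes counted in every DIK library, and the highest of the 9 WT libraries was 158 times the lowest. The log2 differences were -1.76 ± 0.53 at the nose label (edgeR adjusted p = 0.0118), -6.85 ± 0.66 at the mouth label (edgeR adjusted p = 5.34e-07) and -1.94 ± 0.53 at the scrotum label (edgeR adjusted p = 0.00655). WT scrotum replicate 2 lay inside the DIK scrotum range, and without WT scrotum replicate 3 the scrotum difference was -0.89 with an edgeR adjusted p of 0.126. With only the 6 scrotum libraries fitted, the edgeR adjusted p was 0.0566.

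SMTN encodes smoothelin, an actin-associated protein of contractile smooth muscle. It differed at the mouth label, where DIK had 32.0, 35.7 and 33.1 CPM, against 164, 428 and 486 CPM in WT, or -3.42 ± 0.39 on the log2 scale (edgeR adjusted p = 2.63e-06). At the nose label DIK had 22.3, 31.8 and 32.8 CPM, against 32.6, 17.5 and 19.4 CPM in WT. At the scrotum label DIK had 34.4, 39.3 and 33.1 CPM, against 34.8, 17.7 and 36.9 CPM in WT. At both of these labels the libraries overlapped, with log2 differences of 0.39 ± 0.38 and 0.26 ± 0.36 that were not called (edgeR adjusted p = 0.430 and 0.582). Over the 9 DIK libraries SMTN ran from 22.3 to 39.3 CPM, which overlaps the WT nose and WT scrotum libraries.

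CNN1, calponin, binds actin and slows myosin cycling in differentiated smooth muscle. It had 0, 2 and 0 counts in DIK nose, against 2, 8 and 8 counts in WT nose. It had 1, 0 and 0 counts in DIK mouth, against 350, 810 and 584 counts in WT mouth. It had 0 counts in each DIK scrotum library, against 3, 2 and 14 counts in WT scrotum. Scaled by library size, WT was 13 times DIK at the nose label (95% counting interval 3.12 to 116) and 1220 times DIK at the mouth label (219 to 48221), and DIK scrotum was at least 4.48-fold lower than WT scrotum. All were called lower in DIK (edgeR adjusted p = 0.0166, 8.93e-07 and 0.0152 for nose, mouth and scrotum). The nose call was lost without DIK nose replicate 1 or 3 or WT nose replicate 2 (edgeR adjusted p = 0.0584, 0.0537 and 0.0621), and the scrotum call without DIK scrotum replicate 1 or WT scrotum replicate 3 (edgeR adjusted p = 0.0547 and 0.0750).

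LMOD1, leiomodin 1, nucleates actin filaments in smooth muscle cells. DIK nose held 5 counts, against 33 in WT nose, a log2 difference of -3.28 ± 0.74 (edgeR adjusted p = 0.00186). DIK mouth held 3 counts, against 577 in WT mouth, and WT was 135 times DIK (95% counting interval 45.8 to 654; edgeR adjusted p = 6.25e-07). DIK scrotum held 1 count, against 44 in WT scrotum, and WT was 31.1 times DIK (95% counting interval 5.30 to 1257; edgeR adjusted p = 0.000907). Over the 9 libraries of each genotype LMOD1 stayed at or under 0.625 CPM in DIK and at or over 1.63 CPM in WT, so the genotypes did not overlap.

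DES encodes desmin, the intermediate filament protein of smooth, skeletal and cardiac muscle, and it had the largest fitted log2 difference of the 10 genes at each label. Its level was 2.18, 0.538 and 4.64 CPM in DIK nose, against 1558, 1288 and 1824 CPM in WT nose. It was 1.58, 2.19 and 1.33 CPM in DIK mouth, against 2584, 5913 and 6005 CPM in WT mouth. In DIK scrotum each library held 1 count, against 12557, 6342 and 10469 counts in WT scrotum, which is 5269, 1292 and 2626 CPM. The highest DIK library, at 4.64 CPM, was far below the lowest WT library, at 1288 CPM. The log2 differences were -9.29 ± 0.77 at the nose label (edgeR adjusted p = 1.00e-07) and -11.44 ± 0.83 at the mouth label (edgeR adjusted p = 6.82e-08). At the scrotum label WT was 6923 times DIK (95% counting interval 2369 to 33571; edgeR adjusted p = 1.24e-08).

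SYNM encodes synemin, an intermediate filament protein that assembles with desmin. Its level was 6.31, 2.69 and 7.64 CPM in DIK nose, against 405, 231 and 718 CPM in WT nose. It was 3.80, 3.89 and 7.73 CPM in DIK mouth, against 630, 1207 and 2389 CPM in WT mouth. It was 4.19, 7.87 and 6.25 CPM in DIK scrotum, against 1190, 307 and 749 CPM in WT scrotum. No DIK library overlapped a WT library at its label, and the log2 differences were -6.34 ± 0.69, -8.09 ± 0.75 and -6.94 ± 0.72 for nose, mouth and scrotum (edgeR adjusted p = 1.92e-06, 4.23e-07 and 7.06e-07).

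Like DES and SYNM, the skeletal muscle genes were lower in DIK, but their order over the WT labels differed. DES and SYNM averaged highest in WT mouth, at 4834 and 1409 CPM, and the summed skeletal muscle level among WT was lowest there. Of all tested genes, 20.1%, 24.3% and 24% were called lower in DIK at the nose, mouth and scrotum labels. All 13 skeletal muscle genes in the table, among them ACTA1, MYH1, TTN and CKM, were called lower in DIK at each label. Their summed level was 11.3 to 943 CPM in DIK nose and 106810 to 148783 CPM in WT nose, 3.16 to 5.86 CPM in DIK mouth and 1239 to 3726 CPM in WT mouth, and 15.1 to 72.5 CPM in DIK scrotum and 127193 to 330097 CPM in WT scrotum. None of the 13 was at 0 in a WT group, while MYH7, NEB, TNNT3, ACTN3 and MYBPC1 were at 0 in DIK mouth and MYBPC1 in DIK scrotum. Among the 4 cardiac genes in the table, NPPA and MYL7 were at 0 in every group except 1 count of NPPA in WT mouth, whereas ACTC1, the cardiac actin, was called lower in DIK at each label. TNNT2, cardiac troponin T, was called lower at the nose label (-5.39 ± 0.95). It was not called at the mouth label, with 12 counts in DIK and 2 in WT, or at the scrotum label, with 4 counts in DIK and 25 in WT (edgeR adjusted p = 0.154 and 0.203). The part of skeletal muscle in the DES and SYNM differences was not tested.

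Within each library, DES counts set against MYH11 counts separated the WT groups. There were 0.0208 to 0.162 DES counts per MYH11 count over the DIK libraries, 4.23 to 9.51 in WT nose, 0.715 to 0.800 in WT mouth and 15.1 to 63.1 in WT scrotum. Among WT the ratio was lowest in the mouth libraries, where the skeletal muscle genes were lowest too. For TAGLN there were 3.99 to 16.0 counts per MYH11 count over the DIK libraries, against 1.03 to 1.80 in WT nose, 1.75 to 2.09 in WT mouth and 3.45 to 4.72 in WT scrotum, so the DIK libraries overlapped those of WT scrotum. These ratios depend on gene length and are compared only between libraries, not between genes.

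**Figure D3:**
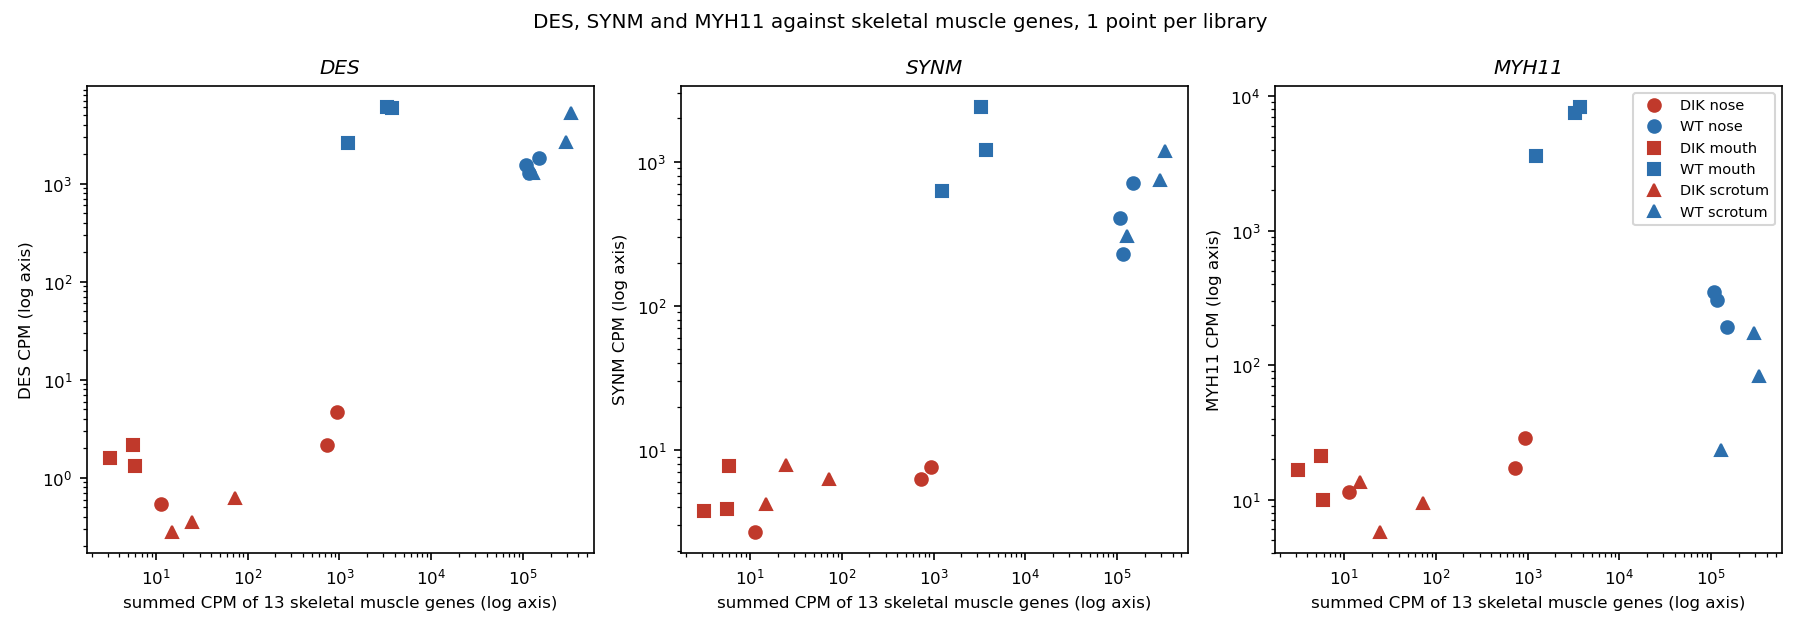
CPM of DES, SYNM and MYH11 (y, log axes, 1 panel each) against the summed CPM of 13 skeletal muscle genes (x, log axis), 1 point per library, red for DIK and blue for WT, with circles for nose, squares for mouth and triangles for scrotum. The WT mouth squares combine the highest MYH11 with a skeletal muscle sum of 1239 to 3726 CPM, far below the other WT libraries, and the DIK points lie at the lower left of each panel.

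PCP4 encodes a small regulator of calmodulin that is abundant in neurons and also expressed in smooth muscle. It had 0, 0 and 1 counts in DIK nose, against 3, 54 and 65 counts in WT nose, and WT was 177 times DIK (95% counting interval 31.1 to 7034; edgeR adjusted p = 1.03e-05). It had 1, 0 and 1 counts in DIK mouth, against 1263, 3515 and 2094 counts in WT mouth, and WT was 2404 times DIK (95% counting interval 665 to 19854; edgeR adjusted p = 9.68e-08). It had 0 counts in DIK scrotum, against 4, 3 and 2 counts in WT scrotum, so DIK was at least 2.12-fold lower (edgeR adjusted p = 0.0249). The scrotum call rested on few reads and was lost without DIK scrotum replicate 1 or 2 or WT scrotum replicate 1 (edgeR adjusted p = 0.0754, 0.0628 and 0.0695).

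**Figure D4:**
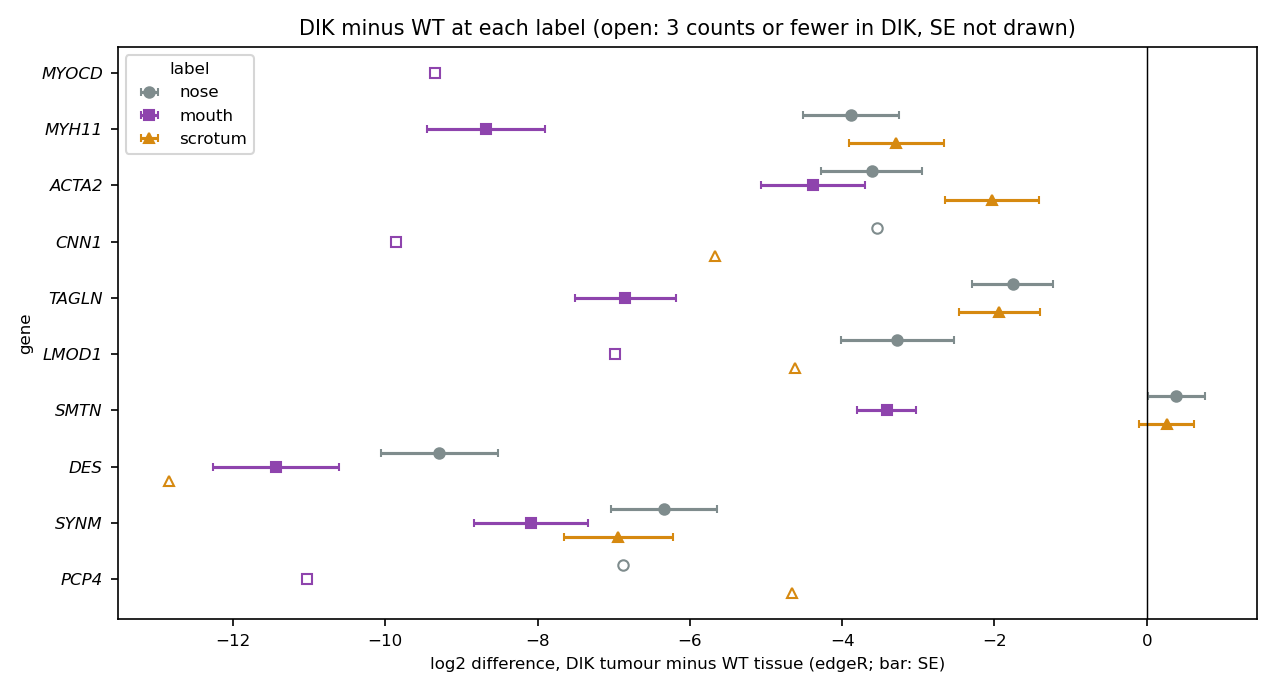
Log2 difference of DIK tumour minus WT tissue (x) for each of the 10 genes (y) at the nose, mouth and scrotum labels, with the SE as a bar; open symbols have 3 counts or fewer in DIK, are drawn without an SE, and depend on the prior count where DIK is at 0. The mouth label lies farthest to the left for every gene except DES, and SMTN at the nose and scrotum labels lies beside 0; MYOCD at these labels is not drawn because both groups are under the floor.

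Whether the DIK minus WT difference itself depended on the label was tested as an interaction. Between the mouth and nose labels, 4 of the 10 genes had a more negative difference at the mouth label, beside 4.61% of all tested genes: MYH11 by -4.80 ± 0.84, TAGLN by -5.08 ± 0.77, SMTN by -3.81 ± 0.53 and MYOCD (edgeR adjusted p = 0.00148, 0.000394, 0.000245 and 0.0490). For MYOCD the estimate was -9.65 and rests on a group at 0 counts. Between the scrotum and mouth labels, 3 of the 10 were less negative at the scrotum label, beside 5.01% of all tested genes: MYH11 by 5.39 ± 0.86, TAGLN by 4.91 ± 0.76 and SMTN by 3.68 ± 0.52 (edgeR adjusted p = 0.000431, 0.000362 and 0.000167). Between the scrotum and nose labels 1 of the 10 was called, DES at -3.54 ± 0.99 (edgeR adjusted p = 0.0363), beside 4.46% of all tested genes called in that direction. ACTA2, with -0.77 ± 0.84 between mouth and nose, and SYNM, with -1.75 ± 0.81, were not called. The MYOCD call was lost with DESeq2 (adjusted p = 0.142), with median-of-ratios scaling or only the groups compared in edgeR (adjusted p = 0.0516 and 0.0656), and without any of 14 of the 18 libraries taken singly. The DES call was lost with only the groups compared (edgeR adjusted p = 0.0707) and without any of 9 libraries.

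Among WT tissues, the mouth label had the highest levels. WT mouth exceeded WT nose for 9 of the 10 genes, beside 9.92% of all tested genes called higher there. SMTN differed by 4.02 ± 0.41, PCP4 by 4.99 ± 0.53, TAGLN by 5.07 ± 0.61, MYH11 by 4.52 ± 0.64, CNN1 by 5.59 ± 0.66 and LMOD1 by 3.08 ± 0.52 on the log2 scale. MYOCD in WT mouth was 167 times WT nose (95% counting interval 29.7 to 6605). DES and SYNM differed by less, at 1.63 ± 0.54 and 1.64 ± 0.56 (edgeR adjusted p = 0.0389 and 0.0440), and the calls were lost without any of 10 (DES) and 11 (SYNM) of the 18 libraries taken singly. ACTA2 differed by 1.54 ± 0.61 and was not called (edgeR adjusted p = 0.0844).

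WT scrotum was lower than WT mouth for 8 of the 10 genes, beside 9.29% of all tested genes called lower. DES and SYNM were the exceptions, at -0.66 ± 0.53 and -0.91 ± 0.55 (edgeR adjusted p = 0.416 and 0.256). PCP4 differed by -9.04 ± 0.67, MYH11 by -6.11 ± 0.69, CNN1 by -6.06 ± 0.64 and TAGLN by -4.93 ± 0.60 on the log2 scale. The ACTA2 difference of -1.96 ± 0.62 (edgeR adjusted p = 0.0269) was lost without WT mouth replicate 2 or 3 or WT scrotum replicate 1 or 2. Between WT scrotum and WT nose 1 of the 10 genes was called, beside 3.45% of all tested genes called lower: PCP4, at -4.04 ± 0.62 (edgeR adjusted p = 0.000951). The order of WT levels was therefore mouth, then nose and scrotum, for MYH11, TAGLN, CNN1, LMOD1 and SMTN. Nose and scrotum were not called apart in edgeR for these genes. For MYH11, all 3 WT scrotum libraries, at 23.4 to 174 CPM, lay below all 3 WT nose libraries, at 192 to 349 CPM. For PCP4 the order was mouth, nose, scrotum, with each step called. For ACTA2 it was mouth, nose, scrotum, with neither step called, and for DES and SYNM mouth, scrotum, nose, with neither step called.

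Among the tumours, 0 of the 10 genes were called between any pair of labels in edgeR, while 1.54%, 5.84% and 2.88% of all tested genes were called in either direction for mouth minus nose, scrotum minus nose and scrotum minus mouth. At an unadjusted edgeR p under 0.05 these counts were 0, 1 and 1 of the 10, both being DES. Of the 12895 tested genes, 1492, 2553 and 1903 passed that unadjusted threshold for the same pairs. At adjusted p under 0.05, DESeq2 and limma-voom called 0 of the 10 in each. DES averaged 2.45 CPM in DIK nose and 1.70 CPM in DIK mouth, and held 3 counts in DIK scrotum. Some uncalled genes had separate libraries. ACTA2 ran from 1045 to 2964 CPM in DIK nose, below DIK mouth (3203 to 4111 CPM) and DIK scrotum (3507 to 5543 CPM). SMTN in DIK nose (22.3 to 32.8 CPM) lay below DIK scrotum (33.1 to 39.3 CPM). DES in DIK scrotum (0.279 to 0.625 CPM) lay below DIK mouth (1.33 to 2.19 CPM). The share of all tested genes separate in this way is not given here. A p that misses the threshold does not show that the levels were equal.

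The genes that work with or against myocardin were set beside it. SRF, serum response factor, was called lower in DIK at the mouth label, at -2.0 ± 0.40 (edgeR adjusted p = 0.000573), and was not called at the nose label (0.70 ± 0.51) or the scrotum label (-0.21 ± 0.45). MRTFA, listed under its older symbol MKL1, was lower at the mouth label at -1.07 ± 0.28 (edgeR adjusted p = 0.00415), and was not called at the nose label (-0.33 ± 0.32) or the scrotum label (0.35 ± 0.29). MRTFB, listed as MKL2, was called at no label, with differences of -0.17 ± 0.27, -0.30 ± 0.26 and -0.53 ± 0.27 for nose, mouth and scrotum. KLF4, a transcription factor of squamous epithelium that also represses myocardin targets, was higher in DIK at the nose label by 5.61 ± 0.79 and at the mouth label by 4.40 ± 0.69 (edgeR adjusted p = 5.26e-05 and 0.000116). At the scrotum label its difference was 1.39 ± 0.61 (edgeR adjusted p = 0.0750), where WT scrotum replicate 2 had 57.9 CPM and the other WT scrotum libraries 5.45 and 6.27 CPM. The summed level of KRT5, TP63 and OXTR was higher in DIK at every label, also at the scrotum label, where KLF4 was not called. It was 20681 to 28432 CPM in DIK nose and 443 to 999.9 CPM in WT nose. At the mouth label it was 39129 to 48228 CPM in DIK and 82.8 to 1294 CPM in WT. At the scrotum label it was 40123 to 60738 CPM in DIK and 46.6 to 12085 CPM in WT. KRT5 made up most of this sum, with 384429 counts in DIK scrotum, against 391 of TP63 and 0 of OXTR. At that label KRT5 was called higher in DIK (3.54 ± 1.37, edgeR adjusted p = 0.0478). TP63 was not called there (1.42 ± 0.60, edgeR adjusted p = 0.0682), and OXTR, with 7 counts in WT scrotum, was not tested.

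Of the 12 genes of this list 10 were tested. At the nose label 2 rose and 2 fell, beside 21.9% higher and 20.1% lower of all tested genes, so the counts are near the background. At the mouth label 1 rose and 5 fell, beside 22.7% and 24.3%, and at the scrotum label 1 rose and 1 fell, beside 19.4% and 24%. CSRP1, a LIM protein that joins SRF and GATA factors in smooth muscle, fell by 6.26 on the log2 scale at the mouth label and by 1.97 at the nose label. MEF2C, a factor of skeletal, cardiac and smooth muscle, fell at every label, by 3.54, 2.97 and 5.36 for nose, mouth and scrotum. CSRP2, a related LIM protein, rose by 1.95 at the nose label and by 1.86 at the scrotum label.

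Other contractile genes, 10 in number, gave 1 higher and 8 lower at the nose label. At the mouth label 10 were lower, and at the scrotum label 7 were lower. Median log2 differences were -2.57, -5.38 and -2.59 for nose, mouth and scrotum. Of all tested genes, 20.1%, 24.3% and 24% were called lower at these labels and 21.9%, 22.7% and 19.4% higher. MYLK, the kinase that starts contraction by phosphorylating the myosin light chain, differed by -2.89 ± 0.52, -7.69 ± 0.64 and -1.29 ± 0.50 for nose, mouth and scrotum, and MYL9, that light chain, by -2.24 ± 0.51, -7.19 ± 0.63 and -1.14 ± 0.49, the last not called. CALD1, caldesmon, which non-muscle cells also make, was higher in DIK at the nose label, at 0.93 ± 0.36 (edgeR adjusted p = 0.0447), and lower at the mouth label, at -2.74 ± 0.38. TPM2 and HSPB6, both also abundant in skeletal muscle, were lower at every label, HSPB6 by -6.66 ± 0.59, -6.27 ± 0.58 and -8.68 ± 0.65.

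Attachment and membrane genes, 12 in number, gave 7 lower at the nose label, 12 at the mouth label and 8 at the scrotum label, and 0 higher at each, beside 20.1%, 24.3% and 24% of all tested genes called lower. PGM5, SGCA, PDLIM3, PDLIM7, ITGA7, SVIL and CAV1 were called lower at every label. PGM5, a protein of muscle attachment plaques, differed by -2.89 ± 0.47 at the nose label and -7.54 ± 0.54 at the mouth label, and held 2 counts in DIK scrotum, against 326 in WT scrotum. PDLIM3, a LIM protein of actin filaments that is abundant in skeletal muscle, differed by -9.86 ± 1.07 at the nose label and -10.41 ± 1.11 at the mouth label, and held 1 count in DIK scrotum, against 27113 in WT scrotum. VCL, vinculin of the dense plaques that anchor actin, differed by -3.62 ± 0.37 at the mouth label, and was not called at the nose label (-0.33 ± 0.34) or the scrotum label (-0.15 ± 0.34). FLNA, filamin A, likewise differed by -4.43 ± 0.45 at the mouth label and was not called elsewhere. Of 14 channels and receptors 13 were tested, and 7, 11 and 7 were lower at the nose, mouth and scrotum labels, with 0 higher. KCNMB1, the beta subunit of the calcium-activated potassium channel in smooth muscle, held 1 count in DIK nose and 53 in WT nose, 3 counts in DIK mouth and 2050 in WT mouth, and 2 counts in DIK scrotum and 11 in WT scrotum.

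Genes of other cells in and around vessels were counted in the same way. Mural cell genes, 7 in number, gave 1 higher and 2 lower at the nose label, 1 higher and 3 lower at the mouth label and 1 lower at the scrotum label, with medians of 0.44, -0.17 and -0.28. For these and the next lists, the shares of all tested genes were 21.9% higher and 20.1% lower at the nose label, 22.7% and 24.3% at the mouth label, and 19.4% and 24% at the scrotum label, and several of the counts are near them. Their summed level was 88.2 to 112 CPM in DIK nose and 59.5 to 72.4 CPM in WT nose, 128 to 139 CPM in DIK mouth and 188 to 429 CPM in WT mouth, and 81.5 to 107 CPM in DIK scrotum and 74.2 to 123 CPM in WT scrotum. RGS5, a pericyte marker, was called at no label (0.44 ± 0.43, 0.13 ± 0.40 and -0.55 ± 0.43), while MCAM, a surface protein of smooth muscle and endothelium, was lower at the mouth label at -3.13 ± 0.39. At the nose label the genes called lower were ABCC9 (-2.25 ± 0.53) and PDGFRB (-1.07 ± 0.36). At the mouth label CSPG4 (-2.36 ± 0.39) and PDGFRB (-1.55 ± 0.34) were lower too, and at the scrotum label ABCC9 was (-1.40 ± 0.51). NOTCH3, the receptor of mural cells that basal keratinocytes also carry, was higher in DIK at the nose label at 2.41 ± 0.42 and at the mouth label at 1.19 ± 0.37. Endothelial genes, 8 in number, gave 2, 6 and 5 lower for nose, mouth and scrotum, with medians of -0.85, -1.38 and -1.28 and 0 higher. Myofibroblast genes, of which 6 of 7 were tested, gave 1 higher and 1 lower at the nose label, 4 lower at the mouth label, and 1 higher and 3 lower at the scrotum label. POSTN, a matrix protein of fibroblasts, differed by -0.33 ± 0.56, -4.85 ± 0.64 and -2.36 ± 0.59. TNC, of the same list, was the gene called higher, by 2.59 ± 0.62 at the nose label and 1.80 ± 0.48 at the scrotum label (edgeR adjusted p = 0.00263 and 0.00584). At the mouth label TNC was lower, at -2.60 ± 0.47. The part of these cell types in the differences of the 10 genes was not tested.

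**Figure D5:**
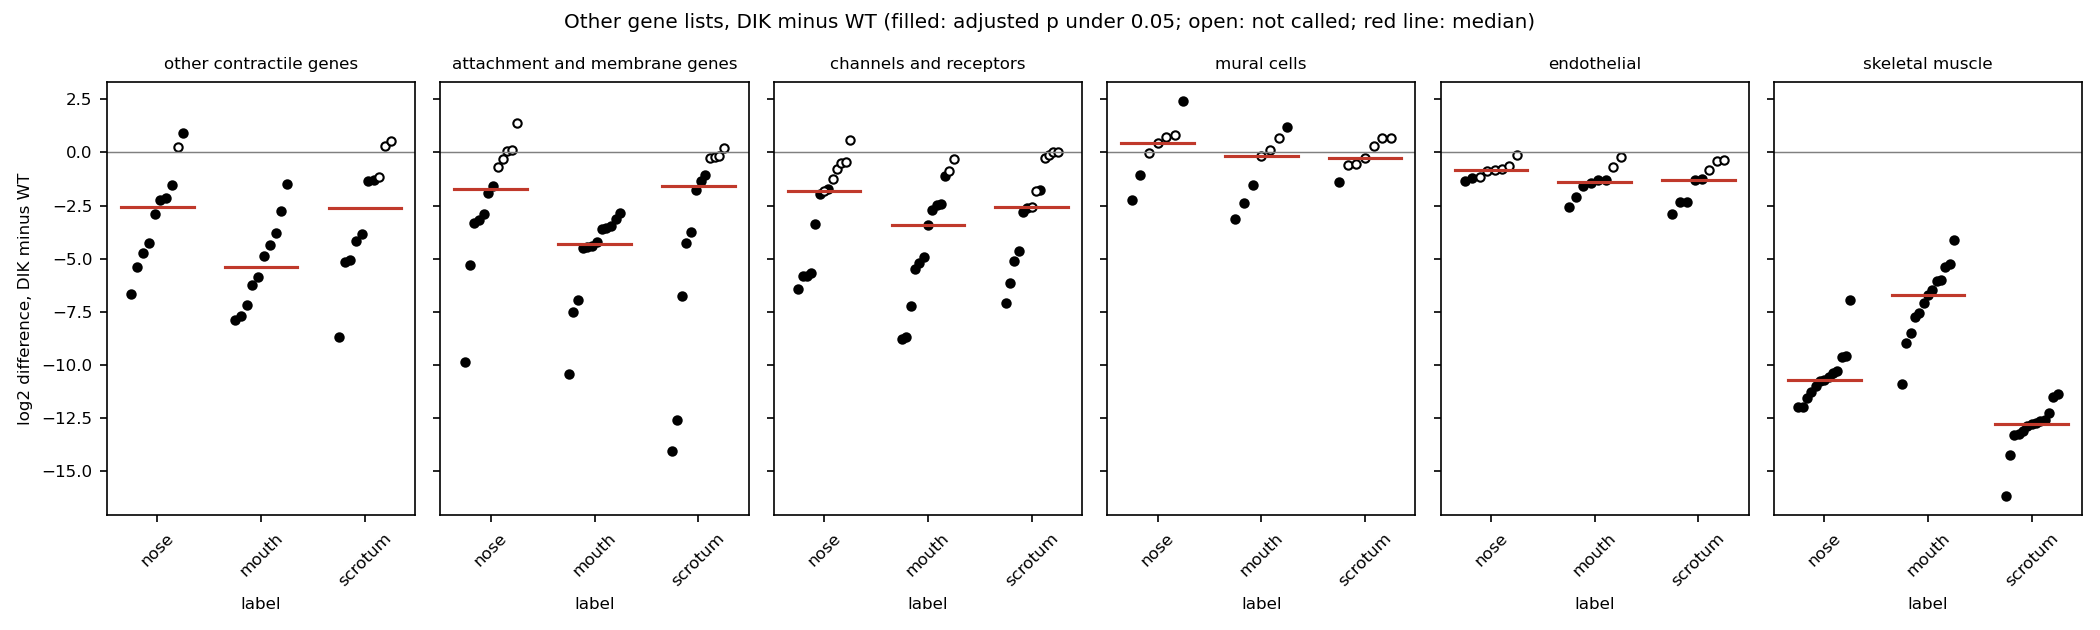
Log2 difference of DIK minus WT (y) for the genes of 6 lists (panels) at the nose, mouth and scrotum labels (x), 1 point per tested gene, filled where edgeR's adjusted p is under 0.05 and open otherwise, with the list's median as a red line. The contractile, attachment and channel lists are lowest at the mouth label, with a contractile median of -5.38, the mural medians lie at 0.44, -0.17 and -0.28 with genes on both sides of 0, and the skeletal muscle medians are -10.69, -6.70 and -12.79 for nose, mouth and scrotum.

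Likeness to MYH11 and to MYOCD was measured over the 18 libraries as the root mean square difference in log2 CPM (prior count 2), each gene centred on its own mean, against 12885 tested genes outside the 10. The 5 closest to MYH11 were a gene with a placeholder symbol (0.74), ADRA1A (0.80), MYLK (0.86), ACTG2 (0.96) and LIMS2 (0.98). ADRA1A, the alpha-1A adrenergic receptor, averaged 0.243 CPM in DIK nose and 16.8 CPM in WT nose, and 0.372 CPM in DIK mouth and 168 CPM in WT mouth. It had 0 counts in DIK scrotum and averaged 2.60 CPM in WT scrotum. LIMS2, an adaptor of integrin attachments, averaged 10.1 ± 1.69 CPM in DIK mouth and 1256 ± 584 CPM in WT mouth.

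Within the 10 genes, CNN1 (0.92), PCP4 (0.93) and TAGLN (1.12) lay nearest to MYH11, and DES (3.21) lay farthest, and ranked 4998 in nearness. The 5 closest to MYOCD were RGS17 (0.53), TSPAN2 (0.59), MYO3B (0.63), RASSF3 (0.64) and GPR20 (0.70). RGS17, a regulator of G-protein signalling, had 502 counts in WT mouth and at most 7 in any other group, and MYO3B, a myosin, 166 counts in WT mouth and at most 2 elsewhere. RASSF3, a RAS-association domain protein, was measurable in every group, at 19.6 ± 2.51 CPM in DIK mouth and 1273 ± 733 CPM in WT mouth. Since MYOCD had 331 counts in WT mouth and at most 2 in any other group, its likeness rests on the WT mouth libraries. The compared genes share libraries and depth.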

How the data were processed

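Per the submitters' processing notes, reads were handled with fastp, HISAT2 2.1.0 and HTSeq 0.11.2. The deposited table holds the authors' whole-number read counts per gene, without normalization. Libraries used TRIzol RNA and an mRNA-seq kit, per the labels' protocols. The sources used here do not give the build, annotation, strand setting or treatment of multiply mapped reads, so sense and antisense reads cannot be told apart. RefSeq (Sscrofa11.1) was used for names only and matched all 10 genes.

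Counts were tested in R 4.3.3 with edgeR 4.0.16 (TMM, robust quasi-likelihood fit, 6 group means, 18 libraries). The default filter (minimum count 10, total 15) kept 12895 genes, holding 99.1% or more of every library. The common biological coefficient of variation was 36.1%. Adjustment was by Benjamini-Hochberg within each contrast. SE is the size of the log2 difference over the root of F. A group at 0 counts gives a bound against 3 counts over the group, and 1 to 3 counts a ratio with an exact 95% interval. Both cover counting error only.

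The 10 genes and 12 wider lists were chosen with earlier results of these data known. From each wider list, counts are given at each label, with values for up to 4 genes by adjusted p, any called against the majority, and SRF, MRTFA, MRTFB and KLF4. RGS5, CKM, MYH7, ACTN3, MYBPC1, ITGA7, PDLIM7, CAV1 and the muscle actins were named outside that rule, after their values were seen. For likeness, the 5 nearest genes are named. Of 115 listed genes 110 were in the table, and the others were not analysed here. The Schwann cell list is not reported here. No replicate pair agreed within sampling noise. Only the edgeR test of DIK against WT was tried on simulated data, with a fixed dispersion and far fewer changed genes than here. The interactions, pairs of labels, bounds and counting intervals were not tried in this way. Alternatives were other scalings and filters, DESeq2 1.42.0, limma-voom (limma 3.58.1), only the groups compared, a replicate block, stricter thresholds and each library left out.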

Additional observations from a re-analysis of the deposited data

Results flagged for a closer look

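The DIK minus WT difference of 5 of the 10 genes was called in at least 1 of 3 direct tests between labels with edgeR. Of all tested genes, 4.61% were called lower for mouth minus nose, 5.01% higher for scrotum minus mouth and 4.46% lower for scrotum minus nose. Between the mouth and nose labels the difference was more negative at the mouth label for MYH11 (-4.80, adjusted p = 0.00148), TAGLN (-5.08, adjusted p = 0.000394), SMTN (-3.81, adjusted p = 0.000245) and MYOCD (-9.65, adjusted p = 0.0490). The MYOCD estimate rests on 0 counts in DIK mouth, and on 2 counts in DIK nose and 1 in WT nose. The MYOCD call was lost with DESeq2 (adjusted p = 0.142), under 2 other edgeR settings (adjusted p = 0.0516 with median-of-ratios scaling and 0.0656 with only the groups compared) and without any of 14 of the 18 libraries taken singly. Between the scrotum and mouth labels it was less negative at the scrotum label for MYH11 (5.39, adjusted p = 0.000431), TAGLN (4.91, adjusted p = 0.000362) and SMTN (3.68, adjusted p = 0.000167). In each of these the WT mouth libraries were the high group: TAGLN averaged 106 CPM in DIK mouth and 12252 CPM in WT mouth, and 108 CPM in DIK nose and 366 CPM in WT nose. DES was more negative at the scrotum label than at the nose label (-3.54, edgeR adjusted p = 0.0363), with 3 counts over DIK scrotum and 28 over DIK nose, a call lost with only the groups compared (edgeR adjusted p = 0.0707) and without any of 9 of the 18 libraries. The summed skeletal muscle level, 15.1 to 72.5 CPM in DIK scrotum and 11.3 to 943 CPM in DIK nose, stood beside it, and its part in the DES result was not tested.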

How the results depend on the processing

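The count of the 10 genes called between DIK and WT was 10 at the mouth label without any 1 library, 7 to 8 at the nose label and 5 to 8 at the scrotum label. The scrotum count of 8 was 3 when only the groups compared were fitted, where fewer genes were tested, and 5 at adjusted p under 0.01. It was 5 without DIK scrotum replicate 1 or WT scrotum replicate 3. The interaction counts were 4 between mouth and nose (8 with limma-voom, 3 to 5 without 1 library), 3 between scrotum and mouth (6 with DESeq2, 7 with limma-voom, 3 to 4 without 1 library) and 1 between scrotum and nose (2 with limma-voom, 0 with only the groups compared, 0 with the replicate block, 0 at adjusted p under 0.01, 0 to 2 without 1 library). Among WT labels, 9 genes between mouth and nose gave 7 to 10 without 1 library, 8 between scrotum and mouth gave 7 to 8, and 1 between scrotum and nose gave 2 with limma-voom and 1 to 2. Among DIK labels, scrotum minus nose had 0, but 1 with library size alone and 0 to 1 without 1 library (1 without DIK nose replicate 2 or WT scrotum replicate 2). The shares of all tested genes called under these settings are not given here. A moved count therefore cannot be read as particular to the 10 genes. The cause of these moves was otherwise not tested.

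SMTN at the scrotum label, not called in any of these fits, turned to -0.0094 without WT scrotum replicate 2 (0.453 at most, without WT scrotum replicate 3) and to -0.032 with WT nose replicate 1 and WT scrotum replicate 2 left out together. The median of all genes was -0.29 (mouth) and -0.21 (scrotum) with scaling by library size alone, and -0.15 and -0.17 with upper-quartile scaling. Deviations of same-numbered DIK and WT libraries of a label correlated at r from -0.05 to 0.09 over 9 pairs. Over all 45 same-numbered pairs r ran from -0.22 to 0.19, and in 0 of 15 pairs of groups were all 3 over 0.1, so the numbers were not taken to pair the libraries. With the replicate number as a block, DIK-WT counts were 8, 10 and 8 for nose, mouth and scrotum, and the DES call between scrotum and nose was lost (edgeR adjusted p = 0.0506). Depth limits MYOCD outside WT mouth, and CNN1, LMOD1 and PCP4 in DIK.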
